A study of Capra hircus with 4 samples.

Results

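The genes described here are 39 genes of chromosome segregation and cell division, a fixed list of mitotic kinases and cyclins, kinetochore and checkpoint proteins, chromosome structure proteins, spindle motors and cytokinesis factors. All 39 were found by symbol among the 28944 genes counted in ovary nuclei. They comprised 7 kinases and cyclins, 9 kinetochore and checkpoint genes, 7 genes of chromosome structure, 10 spindle genes and 6 cytokinesis genes. The nuclei came from the left ovaries of 2 Nubian goats, the polytocous breed (litter size of 3), and 2 Du'an goats, the monotocous breed (litter size of 1). All 4 goats were about 3 years old and had carried a device releasing progesterone (CIDR, 300 mg) for 17 days to synchronise estrus, and per the labels no other hormone that could cause superovulation was given. Each goat gave 1 droplet library of single nuclei in which every RNA molecule is counted by a unique molecular identifier (UMI), so goat and library cannot be told apart, and nuclei of 1 goat are not replicates. Breed likewise cannot be told apart from what else the pair of goats of 1 breed had in common. Where 4 values follow each other they are in the order Du'an replicate 1, Du'an replicate 2, Nubian replicate 1 and Nubian replicate 2.

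In mitosis, CDK1 with cyclins A and B drives entry into division, condensin and topoisomerase II compact and untangle the chromosomes, kinetochores tie each chromosome to spindle microtubules, and the checkpoint kinases hold the cell back until all chromosomes are attached. Separase then cleaves the ties between sister chromatids, and anillin, citron kinase and their partners pinch the daughter cells apart. Most of these transcripts accumulate late in the cell cycle and are degraded after division, so they mark cycling cells in most tissues. In a growing ovarian follicle the granulosa cells around the oocyte multiply until the luteinising hormone surge, and mural granulosa cells acquire aromatase (CYP19A1) and the luteinising hormone receptor (LHCGR).

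The matrices held 9364 to 16988 nuclei and 40573246 to 71613892 UMIs per library, and 44717 of 48332 nuclei were kept. Libraries shared 54 to 131 barcodes a pair, at most 1.40% of a library, and the doublet caller marked 155 nuclei, too few for a working caller. Nuclei were clustered with the 39 genes, the other cell-cycle lists and all markers left out of the clustering genes. Classes were then named from markers, so that the mitotic genes did not define them. All 6 theca markers and all 6 lymphatic markers were up in their clusters, and 5 to 8 of 9 granulosa markers were up in the granulosa clusters. No cluster took the name oocyte or stromal. In the smooth muscle clusters, of 6166 and 3072 nuclei, the stromal list came next. Its mean log2 folds were 2.72 and 3.40, against 3.02 and 4.28 for smooth muscle, so stromal nuclei have no class of their own here. The granulosa nuclei were divided into a replicating state (5820 nuclei, named from 17 DNA replication genes such as MCM2 and PCNA, none of them on the mitotic list), a mural-like state (6663), a progenitor-like state (7188) and the remaining granulosa nuclei (3181). A further 2329 shallow granulosa nuclei stayed without a state. Clusters were drawn without integration and several came mostly from 1 goat. The mural-like state held no nucleus of Du'an replicate 1, and its nuclei of each other library lay mostly in a separate cluster. Of the 3181 remaining granulosa nuclei, 2327 came from Du'an replicate 2.

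Granulosa nuclei held most of the mitotic transcripts in every library. Of all UMIs on the 39 genes, granulosa nuclei with or without a state carried 87.3%, 77.0%, 86.7% and 85.2%. The same nuclei carried 76.5%, 72.0%, 73.7% and 71.9% of the UMIs of all genes. Within them the replicating state stood out. It held 51.7%, 35.5%, 62.2% and 48.2% of the mitotic UMIs, against 17.2%, 12.5%, 21.8% and 17.8% of all UMIs. Summed over the 39 genes, its level was 3119, 3647, 6080 and 3796 CPM (UMIs scaled to the total of the same nuclei), a mean of 4161 ± 1312 (SD, n = 4). Every one of the 4 lay above every other class in every library with at least 20 nuclei of it. The next levels were 2247 CPM in the mural-like state of Nubian replicate 2 and 1892 CPM in T or natural killer-like nuclei of Du'an replicate 2. In Nubian replicate 1 the rank of the replicating state rested on a subcluster of 537 nuclei, described below. Its other replicating nuclei were at 1375 CPM, under both of these levels and under sums of other classes in Nubian replicate 1 itself. These were 1765 CPM in shallow granulosa nuclei without a state, 1438 CPM in lymphatic endothelial and 1428 CPM in pericyte nuclei. Several sums of other classes in the other libraries lay above 1375 CPM too. Multiciliated nuclei, of cells that have left the cell cycle, were at 488 CPM in Du'an replicate 2 and at 223 CPM in Nubian replicate 2, the latter the lowest of all sums. By the mean over libraries, 36 of the 39 genes were highest in the replicating state. The exceptions were CDK1 (54.2 CPM in fibroblast-like nuclei of Nubian replicate 1, the single library with at least 20 of them, against 39.4), CCNB2 (12.8 in macrophage-like nuclei, against 11.8) and CCNA2 (25.3 in multiciliated nuclei, against 17.8).

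**Figure D1:**
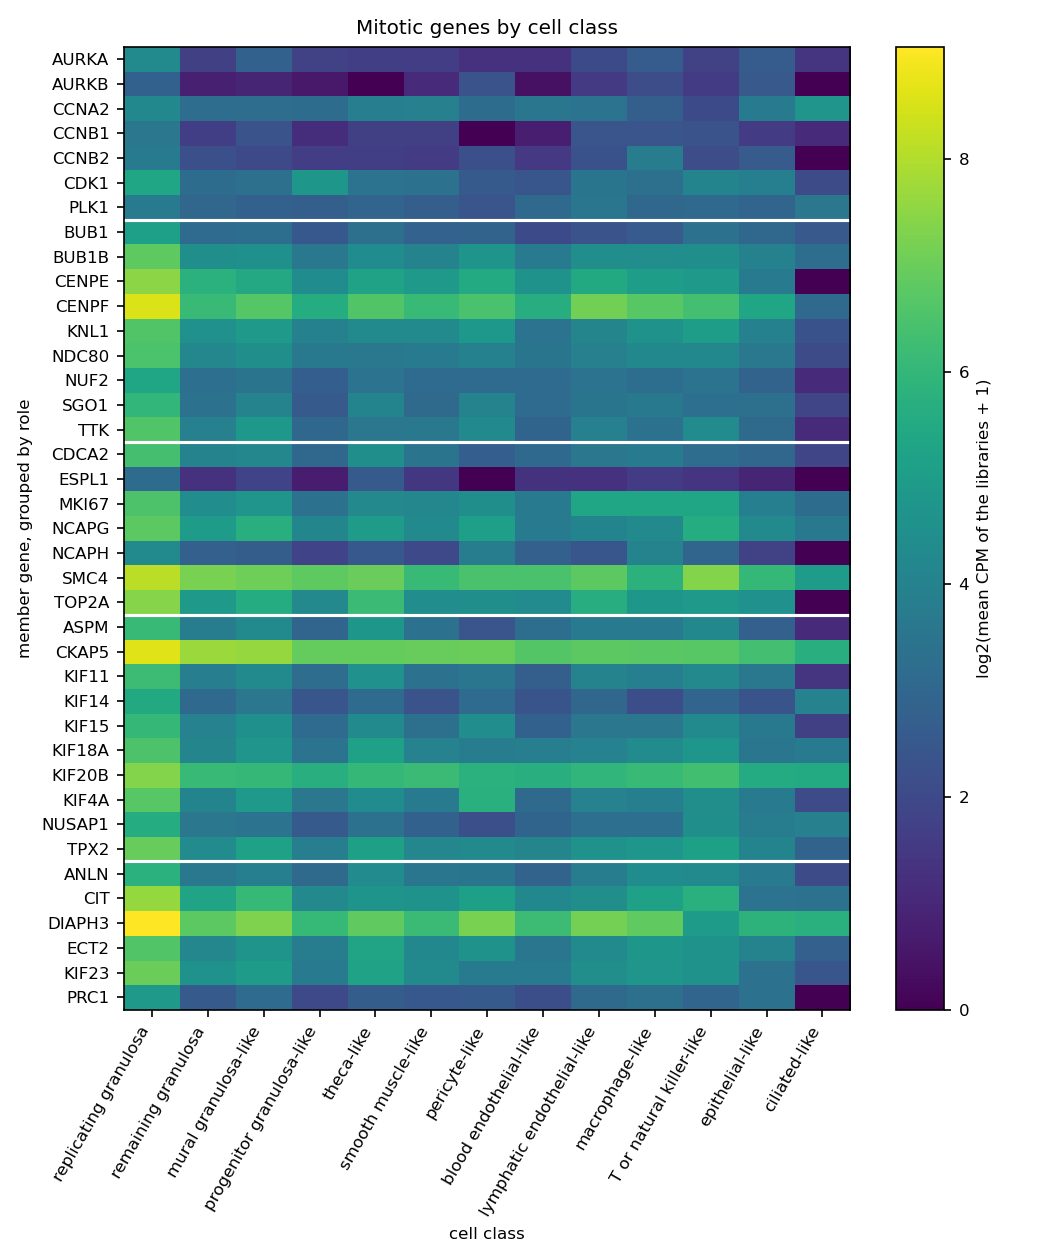
Mean level of each of the 39 mitotic genes (rows, grouped from top to bottom as kinases and cyclins, kinetochore and checkpoint, chromosome structure, spindle, and cytokinesis) in 13 cell classes (columns), as log2 of the mean CPM over libraries plus 1. The replicating granulosa column is the brightest of these columns in every row but those of CCNB2, brighter in macrophage-like nuclei (12.8 against 11.8 CPM), and CCNA2, brighter in ciliated nuclei (25.3 against 17.8 CPM).

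When each class was compared with the mean of the others on counts summed per goat and class (edgeR quasi-likelihood test with goat as a block, 14842 genes), all 39 genes were higher in the replicating state, where 24.2% of all genes tested were called higher. Their median log2 fold change was 2.79, from 0.91 for PLK1, the polo-like kinase of mitotic entry, to 3.53 for CENPE, the kinetochore motor that carries chromosomes to the spindle equator. The median of all genes tested there was 0.04. The states were drawn from other genes of the same nuclei, so the p-values do not come from an independent choice of nuclei. Between 38 and 39 of the genes were called when each library was left out in turn.

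With the clusters used throughout, the mural-like, remaining and progenitor-like granulosa nuclei carried far fewer calls. In the mural-like state 5 of 39 genes were higher, CIT, TTK, NCAPG, CKAP5 and SMC4, where 21.2% of all genes were called higher. This count was 2 without Nubian replicate 2, 8 without Nubian replicate 1 and 11 without Du'an replicate 2, and it was 36 and 34 with clusters drawn at Leiden resolutions of 0.4 and 1.2. At these resolutions the calls were thus not few in the mural-like state. No share of all genes is given for these other settings, so their counts cannot be set against one. In the remaining granulosa nuclei 3 were higher, CENPE, CKAP5 and SMC4 (16.1% of all genes), and 1 without Du'an replicate 1. In the progenitor-like state CDK1 was higher (log2 fold change 1.76 ± 0.28 SE, edgeR adjusted p = 2.35e-06) and MKI67, the protein that coats mitotic chromosomes, was lower (-1.01 ± 0.40, adjusted p = 0.048). There 21.6% of all genes were called higher and 10.5% lower, and leaving out Du'an replicate 1 or Nubian replicate 1 ended the call on MKI67, while 3 genes were lower without Du'an replicate 2 and 2 without Nubian replicate 2. CDK1 in the progenitor-like state measured 21.7, 9.60, 44.8 and 31.3 CPM, beside MKI67 at 6.53, 7.04, 12.8 and 11.5 CPM.

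Granulosa states were then compared with each other alone (13632 genes, goat as a block). All 39 genes were higher in the replicating state than in the mean of the other 3 states, where 9.86% of all genes were called higher. They remained 39 of 39 without each library in turn. The median log2 fold change of the 39 was 2.44, against -0.02 for all genes tested. For 32 of the 39, all 4 replicating sums lay above all 11 sums of the other states, and 38 were higher in the replicating state than in any other state of the same library in 4 of 4 libraries. The exception was CCNB2, a B-type cyclin, with 3 of 4. The 7 genes whose sums overlapped were CCNB1, CCNB2, CDK1, CIT, KIF15, PRC1 and TTK. Neither the 32 nor the 38 was counted over all genes, so no share of all genes stands beside them. Both counts include the smaller subcluster of the replicating state, described below. The highest sum outside the replicating state was in the mural-like nuclei of Nubian replicate 2 for most of the genes.

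The 8 largest differences were in checkpoint and chromosome genes, a mitotic kinase and kinesins. TTK, the kinase that starts the spindle checkpoint, measured 54.0, 87.1, 164 and 77.9 CPM in replicating nuclei. Its sums in the other states ran from 3.68 to 56.1 CPM with a median of 9.30, and overlapped the replicating ones at 1 sum. Its log2 fold change was 2.84 ± 0.35 (SE, edgeR adjusted p = 0.000228). SGO1, shugoshin, which guards the cohesion of centromeres, measured 54.4, 49.9, 89.8 and 58.2 CPM against 1.28 to 30.9 CPM in the other states (2.80 ± 0.28, adjusted p = 8.45e-05). CDCA2, which brings a phosphatase to the chromosomes at the end of mitosis, measured 60.4, 81.2, 109 and 77.6 CPM against 4.48 to 35.2 (2.79 ± 0.27, adjusted p = 8.03e-05). The groups of SGO1 and of CDCA2 did not overlap. In the larger subcluster of the state, described below, Nubian replicate 1 measured 16.8 (TTK), 17.0 (SGO1) and 24.5 CPM (CDCA2). These 3 values lay within the ranges of the other states.

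AURKB is the kinase of the chromosomal passenger complex, which corrects faulty attachments. It was sparse, at 4.50, 4.66, 10.01 and 4.76 CPM in the replicating state and 0 to 1.79 CPM elsewhere in the granulosa nuclei (log2 fold change 2.73 ± 0.36, edgeR adjusted p = 0.000352). KIF14 and KIF4A are kinesins of the midbody and of the chromosome arms. KIF14 measured 30.1, 34.9, 69.9 and 41.9 CPM against 2.83 to 21.4, and KIF4A 71.2, 92.3, 155 and 93.9 CPM against 4.60 to 54.7 CPM. BUB1B, a checkpoint protein that restrains anaphase, measured 81.2, 89.2, 167 and 103 CPM against 9.58 to 41.0 (2.66 ± 0.24, adjusted p = 7.13e-05). KIF23, a motor of the central spindle, measured 101, 103, 192 and 122 CPM against 7.68 to 63.7 (2.66 ± 0.27, adjusted p = 9.48e-05). In each of these 5 genes the replicating sums stood clear of the others, and Nubian replicate 1 was the highest of the 4. This held for the whole state. In the larger subcluster Nubian replicate 1 was the lowest of the 4. There KIF14, KIF4A, BUB1B and KIF23 measured 11.1, 26.1, 32.5 and 36.9 CPM in that library, within the ranges of the other states.

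The remaining genes followed with the same direction, by role. The 9 kinetochore and checkpoint genes had log2 fold changes of 2.16 to 2.84, the lowest in KNL1, the scaffold that recruits the checkpoint, with BUB1 at 2.40, NDC80 at 2.54 and NUF2, its partner on the microtubule, at 2.25. The 6 cytokinesis genes lay within 2.37 to 2.66, among them ECT2, the activator of the contractile ring, and PRC1, which bundles the central spindle. The 10 spindle genes ranged from 1.16 in CKAP5 to 2.71 in KIF14. CKAP5 is a microtubule polymerase also used in resting cells. In the whole replicating state it was even between goats, at 415, 388, 390 and 381 CPM, against 110 to 252 CPM elsewhere. In the larger subcluster it was at 415, 370, 236 and 380 CPM, with Nubian replicate 1 within the range of the other states. The 7 chromosome structure genes ranged from 1.01 in SMC4 to 2.79, with TOP2A at 2.56 and ESPL1, separase, at 2.52.

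The 7 kinases and cyclins spread the most, from 0.95 ± 0.16 for PLK1 and 1.04 ± 0.16 for CCNA2 to 2.73 for AURKB. PLK1 measured 9.58, 12.4, 14.6 and 10.8 CPM in the replicating state and 4.27 to 8.96 CPM in the others. CCNA2, a cyclin of S phase and mitotic entry, measured 15.8, 18.0, 24.1 and 13.1 CPM against 5.46 to 9.65. In neither gene did the groups overlap, small as the folds were. In the larger subcluster Nubian replicate 1 measured 5.86 CPM of PLK1, within the range of the others, and 12.2 CPM of CCNA2, above it. The call on PLK1 was lost at a Leiden resolution of 1.2 (log2 fold change 0.59, adjusted p = 0.11). CCNB1, the main mitotic cyclin, was at 6.85, 11.2, 17.1 and 8.60 CPM, and overlapped the 0.640 to 8.08 CPM of the other states. CDK1 overlapped too, at 24.1, 42.8, 53.9 and 36.9 CPM against 3.68 to 44.8, the highest of these in the progenitor-like state of Nubian replicate 1.

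Among the other states, NCAPG, a condensin subunit, was higher in mural-like than in remaining granulosa nuclei (0.81 ± 0.23, edgeR adjusted p = 0.026), where 10.6% of all genes were called higher. It was not called without Du'an replicate 2 or without Nubian replicate 2. CENPE, NCAPH, NCAPG and CKAP5 were lower in progenitor-like than in remaining nuclei, with log2 fold changes of -1.27, -1.16, -0.82 and -0.68, and CDK1 was higher by 1.68. All genes were called lower in 9.06% and higher in 12.1% of cases there. The count of 4 was 1 without either Du'an library, 7 without Nubian replicate 1, and 19 at a resolution of 1.2, settings for which no share of all genes is given.

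The 5820 nuclei of the replicating state came from 2 subclusters of different kinds. The larger, with 5261 nuclei, came from all libraries, had 9 of the 17 replication genes up, and had no replication or mitotic gene among its 10 leading genes. Its summed mitotic level was 3119, 3201, 1375 and 3770 CPM. The smaller, with 559 nuclei of which 537 came from Nubian replicate 1, had 12 of the 17 up and had TTK, KIF18B and CENPF among its leading genes. In Nubian replicate 1 its summed level was 17202 CPM and in the 20 nuclei of Du'an replicate 2 it was 16672 CPM. The higher level of Nubian replicate 1 in the replicating state therefore lay in the smaller subcluster, and in the larger one that library was the lowest of the 4.

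**Figure D2:**
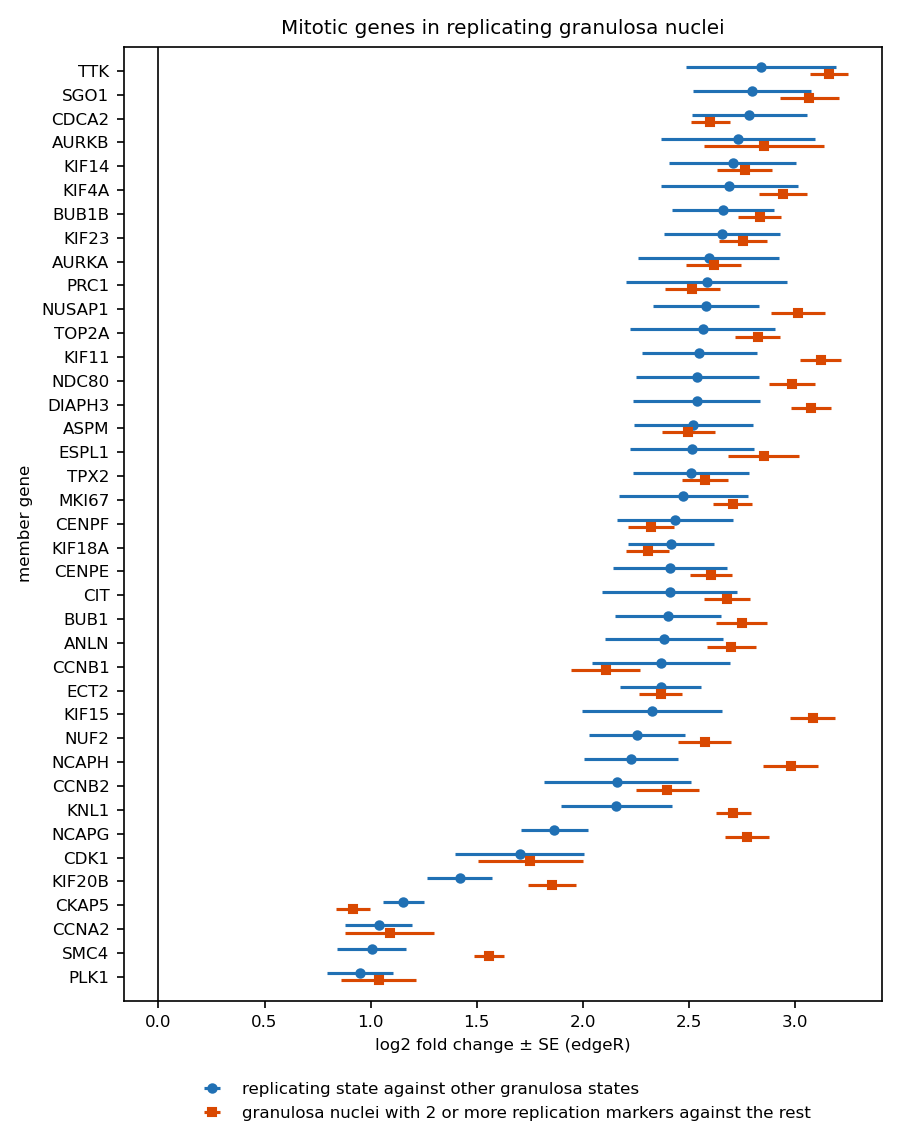
Log2 fold change ± SE (edgeR) of each of the 39 genes (rows) in the replicating state against the other granulosa states (circles) and in granulosa nuclei with at least 2 replication genes detected against the other granulosa nuclei (squares). Every point lies to the right of 0, from 0.92 to 3.16, and PLK1, SMC4, CCNA2 and CKAP5 lie nearest to it.

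A comparison by the same 17 replication genes within each nucleus, rather than by cluster, gave the same direction. These genes also named the replicating state and the nuclei were the same, so it is no independent test. Granulosa nuclei were thinned to 1000 UMIs, and 2444 of them showed at least 2 of the 17 replication genes. In these replication-positive nuclei all 39 mitotic genes were higher than in the other granulosa nuclei of the same goats (14310 genes, of which 9.87% were called higher). The comparison was chosen after the states had been seen. The median log2 fold change of the 39 was 2.70, against -0.04 for all genes. TTK again headed the list (3.16 ± 0.09 SE, edgeR adjusted p = 4.60e-09), followed by KIF11, the motor that pushes spindle poles apart (3.12 ± 0.10), and KIF15, which can stand in for it (3.08 ± 0.11). CKAP5 (0.92 ± 0.08), PLK1 (1.04 ± 0.18) and CCNA2 (1.09 ± 0.21) were the lowest, and these 3 were also among the 4 lowest in the comparison of states. All 39 were called with DESeq2 and without each library.

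To count nuclei rather than transcripts, a nucleus was called mitotic-positive when, after thinning to 1000 UMIs, it showed UMIs of at least 3 different genes out of 35. CKAP5, CIT, DIAPH3 and SMC4 were left out of this count because they are used outside mitosis. Of 34393 nuclei with enough UMIs, 2171 were positive, and 1777 of these (81.9%) were granulosa nuclei of the 4 states and 1196 (55.1%) of the replicating state. The 34393 themselves held 21140 granulosa nuclei of the 4 states, 5374 of them replicating, and 12672 nuclei of the other named classes. Too shallow to be counted were 1712 nuclei of the 4 states and 6864 of the other named classes, so part of the 81.9% follows from which nuclei were counted. The number of different genes had a long tail: of 21140 granulosa nuclei, 15464 showed none, 572 showed 2, just under the limit, 222 showed 3, just inside it, 1381 showed 5 or more and 503 showed 10 or more. The highest number was 19.

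**Figure D3:**
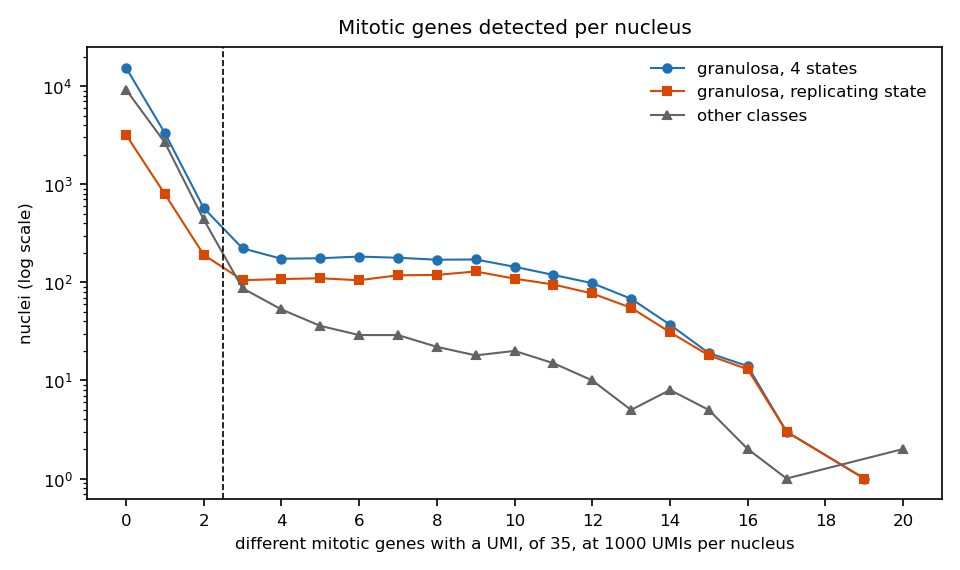
Number of nuclei (log scale) by the number of different mitotic genes with a UMI, out of 35 and at 1000 UMIs per nucleus, in the granulosa nuclei of all 4 states, in the replicating state alone and in the other named classes. The dashed line marks the limit of 3 genes; the granulosa curve falls from 15464 nuclei without a gene to 222 with 3 and then stays nearly level up to 9 genes.

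In the replicating state 17.3%, 18.2%, 25.9% and 21.7% of nuclei were positive, a mean of 20.8% over libraries. Their exact 95% Clopper-Pearson intervals hold counting error alone and ran from 14.9 to 19.9, 15.7 to 20.9, 24.1 to 27.7 and 19.4 to 24.2%. Without the smaller subcluster, in which 516 of 533 nuclei of Nubian replicate 1 were positive, the shares were 17.3%, 16.4%, 5.67% and 21.6%. The other granulosa states were lower in each library. The remaining nuclei had 6.41%, 4.91%, 1.63% and 8.96%, the progenitor-like state 1.63%, 0.971%, 3.18% and 2.22%, and the mural-like state 1.96%, 4.76% and 13.8% in Du'an replicate 2 and the Nubian replicates. The mural-like values came mostly from a different subcluster in each library. These had 29 positive of 1454 nuclei in Du'an replicate 2, 212 of 4469 in Nubian replicate 1 and 52 of 370 in Nubian replicate 2. Multiciliated nuclei, which should lack mitosis, had none in 123 nuclei pooled over the goats, for which the same interval reaches 2.95%. Without thinning, 14 of the 123 passed the limit (the class had a median of 6080 UMIs, the replicating state 4034), and the replicating state had 25.6%, 28.2%, 31.5% and 31.1%.

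**Figure D4:**
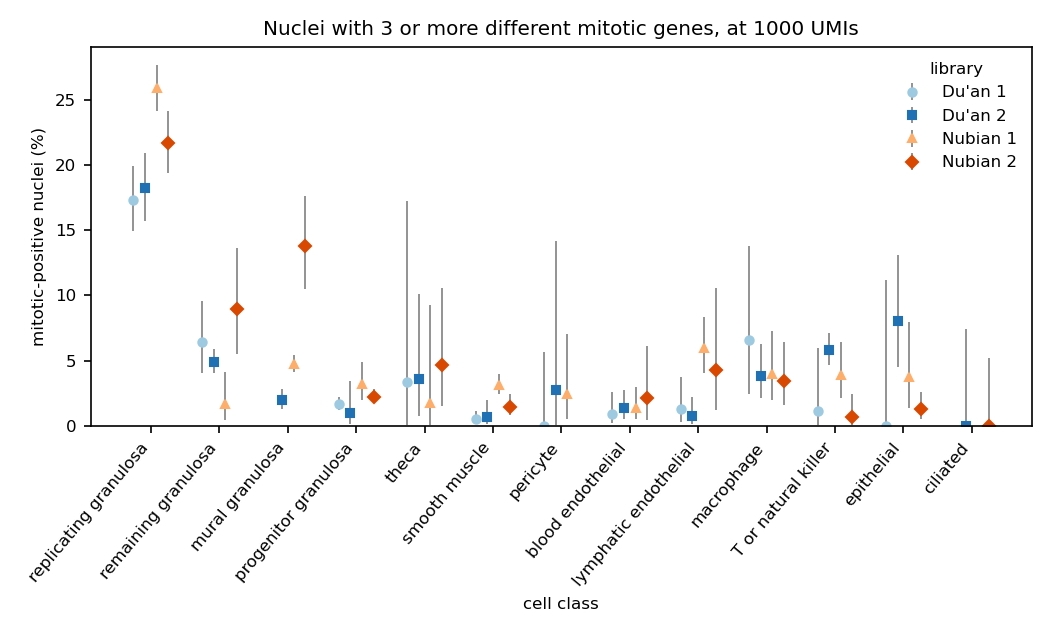
Share of mitotic-positive nuclei (%) in 13 cell classes for each library with at least 20 nuclei, with exact 95% binomial intervals. Fibroblast-like nuclei and the shallow granulosa nuclei without a state, at 13.1% in Du'an replicate 2, are not drawn. The 4 replicating granulosa points, 17.3 to 25.9%, stand above every other class, the next being the mural-like state of Nubian replicate 2 at 13.8%.

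Replication genes were detected more often in the mitotic-positive than in the other granulosa nuclei, in 4 of 4 goats. At least 2 of them were seen in 54.4%, 49.7%, 58.8% and 54.5% of positive nuclei, against 7.67%, 5.58%, 7.52% and 9.42% of the other granulosa nuclei. Conversely, 30%, 37.2%, 49.3% and 35.04% of the replication-positive nuclei were mitotic-positive. No replication gene was seen in 267 of the 1777 positive nuclei. Before thinning, positive nuclei had a median of 5271 UMIs and the others 4661, and 8.61% and 7.76% of them were among the 10% of nuclei with the highest doublet scores. CENPF was seen in 66.2% of positive and 2.01% of other granulosa nuclei, TOP2A in 47.7% and 0.480%, and MKI67 in 30.4% and 0.532%, shares that partly follow from the choice of nuclei.

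Mitotic-positive granulosa nuclei in which no replication gene was seen were compared with those showing at least 2, a comparison chosen after the data were seen (edgeR, 7689 genes, of which 0.65% were called higher and 1.59% lower). CCNB1, the main mitotic cyclin, was higher in nuclei without replication genes (log2 fold change 0.91 ± 0.23, edgeR adjusted p = 0.043), as were ECT2 (0.48) and CENPF (0.43). NCAPG was lower (-0.69 ± 0.14, adjusted p = 0.0081). The other 35 of the 39 genes were not called. None of the 3 higher calls was made with DESeq2 or without any of the libraries in turn, and the call on NCAPG was lost without Nubian replicate 1. Of 45 replication genes tested 27 were lower, which the choice of nuclei in part fixes.

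Outside the granulosa nuclei, T or natural killer-like nuclei had the most genes called, and a single goat carried them. Higher were 13 of the 39 genes (27.7% of all genes tested were called higher, so that the share of mitotic genes was near that of all genes) and 2 were lower, CCNA2 and DIAPH3 (24.7%). The 13 were ASPM, NCAPH, NUSAP1, MKI67, CIT, NCAPG, KNL1, KIF15, ANLN, KIF11, TTK, SMC4 and TPX2, with log2 fold changes of 0.80 in TPX2, the activator of Aurora A, to 1.34 in ASPM, a spindle pole protein. MKI67 measured 14.8, 100, 29.3 and 14.9 CPM, and ASPM 0, 49.3, 19.8 and 1.99 CPM. Mitotic-positive were 1 of 91, 86 of 1475, 14 of 361 and 2 of 296 nuclei, so that Du'an replicate 2 held most of them. Without Du'an replicate 2 none of the 39 was called higher, and 9 of the 13 turned below 0, while 23 were called without Nubian replicate 2. In the positive nuclei of Du'an replicate 2 the T and natural killer markers summed to 80.1 per 10000 UMIs, against 93.1 in the other nuclei of the class, and granulosa markers to 5.68 against 10.3. Of these nuclei 6.98% were among the highest doublet scores, against 3.31% of the others.

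In macrophage-like nuclei 4 genes were higher (30.6% of all genes) and 2 were lower (21% of all genes), SMC4 and CCNA2. CCNB2 measured 11.7, 5.74, 11.8 and 21.8 CPM there (2.29 ± 0.50, edgeR adjusted p = 0.000173), a mean of 12.8 ± 6.67 (SD, n = 4) beside 11.8 in the replicating granulosa nuclei. NCAPH, the condensin subunit that closes the ring, measured 18.8, 11.1, 16.1 and 16.0 CPM (2.03 ± 0.41, adjusted p = 5.77e-05). MKI67 and ANLN, anillin, were higher by 0.95 and 0.82, and the count of 4 was 2 without Du'an replicate 1. These values stand on 5 to 30 UMIs of CCNB2 per library. Positive shares were 6.59%, 3.84%, 4% and 3.45%.

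In multiciliated nuclei, which had enough nuclei only in Du'an replicate 2 and Nubian replicate 2, CCNA2 was higher (1.65 ± 0.47, edgeR adjusted p = 0.0056; 16.8% of all genes) at 25.3 CPM in both libraries, on 8 and 11 UMIs. No UMI of TOP2A or CENPE was seen there, and CENPF, SMC4 and CKAP5 were lower, so 5 genes in all were lower (9.31% of all genes). In epithelial nuclei 9 of the 39 genes were lower (20.3% of all genes), so that the share of mitotic genes was near that of all genes. Among them were CIT, citron kinase, by -2.04 ± 0.47 and CKAP5 by -0.95 ± 0.18. This lower count was 2 without Du'an replicate 1, 2 without Nubian replicate 2 and 24 without Du'an replicate 2. In blood endothelial nuclei ECT2 and NCAPG were lower (8.85% of all genes). None of the 39 was called in lymphatic endothelial, pericyte, smooth muscle or theca-like nuclei (edgeR). Of all genes 17.9%, 8.03%, 20.4% and 7.8% were called higher in those classes. An unadjusted p under 0.05 (edgeR) was found there for 2, 2, 1 and 1 of the 39. For that limit no share of all genes is given. The steroid-producing theca-like nuclei had 10 positive nuclei of 279, spread over all libraries.

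The study set the polytocous breed beside the monotocous one. In that comparison edgeR called none of the 281 pairs of class and gene tested in 11 classes, and none of all 99763 pairs of class and gene (0%). An unadjusted p under 0.05 was found for 52 of the 281 and for 3.95% of all pairs. DESeq2 called 3 of the 241 mitotic pairs to which it gave an adjusted p, all in lymphatic endothelial nuclei, and 0.346% of all pairs. Without the low-count filter edgeR called 22 of 426 mitotic pairs, in lymphatic endothelial, T or natural killer-like, smooth muscle and pericyte nuclei, and 0.794% of all pairs. Without Nubian replicate 2 it called 5 of 306, in lymphatic endothelial and pericyte nuclei, and 0.238% of all pairs. In the replicating state 38 of 39 log2 fold changes were above 0 (Nubian over Du'an), with a median of 0.56. Neither value is given for all genes of this fit, so it cannot be set against them. Of the 39 genes 19 had both Nubian libraries above both Du'an libraries, against 18.2% of all genes tested. CENPF, with the highest of the 39 folds, was at 242, 285, 664 and 333 CPM (0.87 ± 0.36, edgeR adjusted p = 0.999). This arrangement was not seen in the larger replicating subcluster, where Nubian replicate 1 was the lowest of the 4 libraries for 39 of the 39 genes and 0 of the 39 had both Nubian libraries above both Du'an libraries. CENPF was there at 242, 243, 103 and 329 CPM, MKI67 at 66.5, 72.9, 25.7 and 89.5 CPM, and TOP2A at 135, 115, 56.1 and 133 CPM. The 39 genes were measured in the same nuclei and are not separate observations.

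The same arrangement of libraries was seen in some other classes. In lymphatic endothelial nuclei 26 of 30 tested genes had both Nubian libraries above both Du'an libraries (15.5% of all genes), in smooth muscle 25 of 35 (12.7%), in macrophages 22 of 31 (20.3%) and in progenitor-like granulosa nuclei 22 of 37 (16.6%). It was 0 of 28 in T or natural killer-like nuclei (24.8%), 4 of 31 in remaining granulosa (17.5%), 4 of 24 in blood endothelial (14.5%), 1 of 15 in epithelial (9.66%), 3 of 5 in pericyte (16.5%) and 0 of 6 in theca-like nuclei (14.7%). In lymphatic endothelial nuclei CENPE measured 13.2, 9.13, 60.4 and 94.1 CPM. CENPF there was at 44.8, 26.7, 188 and 290 CPM, and DIAPH3 at 68.6, 54.1, 247 and 193 CPM. These 3 were named after their values were seen, as the genes that DESeq2 called.

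The positive nuclei behind these class sums were few, and their granulosa transcripts differed between classes and libraries. In lymphatic endothelial nuclei they were 3 of 232, 3 of 392, 31 of 523 and 4 of 94, which is 1.29%, 0.765%, 5.93% and 4.26%. In these nuclei the granulosa markers summed to 8.46, 68.9, 18.8 and 2.04 per 10000 UMIs, against 10.3, 11.1, 13.0 and 12.0 in the other lymphatic nuclei of the same library. Their lymphatic markers summed to 43.2, 12.7, 61.6 and 228 against 93.6, 145, 78.4 and 123, so that Nubian replicate 2 went the other way from the remaining libraries. In smooth muscle nuclei 7, 3, 65 and 14 were positive. Their granulosa markers were higher than in the other nuclei of the class in all 4 libraries (31.6, 22.9, 42.0 and 38.8 against 12.5, 17.0, 22.2 and 14.1), and their smooth muscle markers lower (29.2, 13.1, 25.3 and 30.2 against 50.4, 41.1, 56.2 and 39.9). In Nubian replicate 1, 56.9% of these 65 were among the 10% highest doublet scores, against 12.9% of the other smooth muscle nuclei. Blood endothelial nuclei also had more granulosa marker transcripts when positive in all 4 libraries (41.7, 40.8, 20.2 and 23.4 against 11.1, 14.7, 13.8 and 6.51). In T or natural killer-like nuclei they were higher in Nubian replicate 1 alone (26.2 against 12.6). In macrophage-like nuclei they were also higher in that library alone (15.9 against 14.9). Macrophage markers were lower in the positive nuclei in all 4 libraries (22.3, 27.4, 15.6 and 30.9 against 25.3, 34.6, 27.8 and 62.5). The positive share of macrophage-like nuclei averaged 3.72% in Nubian and 5.21% in Du'an libraries, the reverse order of the class sums. In the granulosa nuclei themselves the granulosa markers summed to 60.9 in positive and 52.3 in other nuclei. The part of mixed nuclei in the class sums was not tested.

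For the share of positive nuclei, 2 goats against 2 allow no exact permutation p under 0.333. In the granulosa nuclei of the 4 states together the share was 5.70%, 6.24%, 11.1% and 8.53%, a difference (Nubian over Du'an) of 3.83 percentage points with no overlap (two-sided exact permutation p = 0.333, adjusted over 11 comparisons 0.611). Without the subcluster of 559 nuclei the shares were 5.70%, 5.87%, 4.75% and 8.49%, the libraries overlapped, and the difference was 0.836 points. In the replicating state the difference was 6.02 points, and -3.26 points without that subcluster. In lymphatic endothelial nuclei it was 4.06 points. The 11 comparisons hold the granulosa nuclei together beside 3 of their states. The Nubian libraries were both higher in 6 of them, each with exact permutation p = 0.333. The other 5 differences were below 0, with overlapping libraries. These were -1.54 points in epithelial, -1.49 in macrophage, -1.19 in T or natural killer-like, -0.36 in remaining granulosa and -0.25 in theca-like nuclei.

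Other genes were then compared between the positive and the other granulosa nuclei of the same goats (edgeR, goat as a block, 14554 genes). The nuclei were chosen by the mitotic genes, so only genes off that list are results. All genes tested were called higher in 10.1% and lower in 10% of cases. Of 72 other mitotic genes tested, 71 were higher, with DEPDC1 (6.61 ± 0.15), KIF18B, KIF2C and DLGAP5 at the top. KIF18B, KIF2C and DLGAP5 are factors of spindle and chromosome movement. DLGAP5 measured 232, 256, 320 and 270 CPM in positive and 1.85, 2.92, 4.32 and 3.39 CPM in other nuclei. Of 56 replication genes 54 were higher, led by TICRR (4.98 ± 0.13), which starts replication origins, EXO1, RRM2 and CLSPN. Their folds were lower as a list, with a median of 1.85 against 4.04 for the other mitotic genes and -0.07 for all genes.

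Regulators of the cycle moved in both directions. Of 14 transcription factors 11 were higher, first FOXM1, the activator of the mitotic genes (5.95 ± 0.24, edgeR adjusted p = 3.24e-08), at 21.7, 18.2, 26.4 and 21 CPM in positive and 0.475, 0.332, 0.328 and 0.261 CPM in other nuclei. E2F8 (4.73), E2F7 (4.55) and MYBL1 (3.69) followed, and TFDP2, an E2F partner, was lower (-0.46 ± 0.12). Of 20 G1 cyclins, inhibitors and pocket proteins tested 7 were higher and 5 lower. Higher were the phosphatase CDKN3 (4.76), the inhibitor CDKN2C (2.62), the pocket protein RBL1 (2.57) and the cyclin CCNE2 (2.56). Lower were the inhibitors CDKN1A (-2.41 ± 0.29) and CDKN1C (-2.16 ± 0.41), the stress gene GADD45A (-2.13 ± 0.21) and the cyclin CCND3 (-2.05 ± 0.21). CCND3 measured 30.2, 31.0, 19.8 and 35.3 CPM in positive and 162, 121, 46.7 and 204 CPM in other nuclei, lower in 4 of 4 goats.

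Granulosa function genes differed less. Of 25 tested, 8 were higher and 3 lower, and 5 were higher without Nubian replicate 2. Among the higher were PAPPA, which cleaves IGF binding proteins (1.43 ± 0.16), FST, follistatin (0.86 ± 0.17), and HSD17B1, an estrogen-producing enzyme (0.81 ± 0.15). Lower were IGFBP5 (-2.23 ± 0.22), LHCGR (-1.44 ± 0.26) and CYP11A1, the side-chain cleavage enzyme that the files list as LOC102173131 (-1.21 ± 0.29). LHCGR measured 6.96, 213, 467 and 96.2 CPM in positive and 5.80, 1052, 1005 and 229 CPM in other nuclei, lower in 3 of 4 goats. Positive nuclei fell in other proportions into the states, so the sums were also taken within goat and state. There 2 granulosa genes were higher and 3 lower, LHCGR was at -0.18 (edgeR adjusted p = 0.80), CYP11A1 at -0.49 (0.34), FST at 0.40 (0.055) and HSD17B1 at 0.04 (0.88), and none of these 4 was called. The 3 lower were IGFBP5 (-0.96), AMHR2 (-0.90) and ESR2 (-0.80). AMHR2 and ESR2 had not been called in the first fit, and IGFBP5 is also a marker of the progenitor-like state. With remaining and replicating nuclei alone LHCGR (1.03) and CYP11A1 (LOC102173131, 0.83) turned above 0. CDKN1C, at -1.09 within states (0.14), was not called there either. The folds of CDKN1A (-1.44), GADD45A (-0.87) and CCND3 (-1.51) were smaller in size within states but were still called. Also within states 71 of 71 other mitotic, 49 of 56 replication and 11 of 14 transcription factor genes were higher. No share of all genes is given for this fit, so its counts cannot be set against one.

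**Figure D5:**
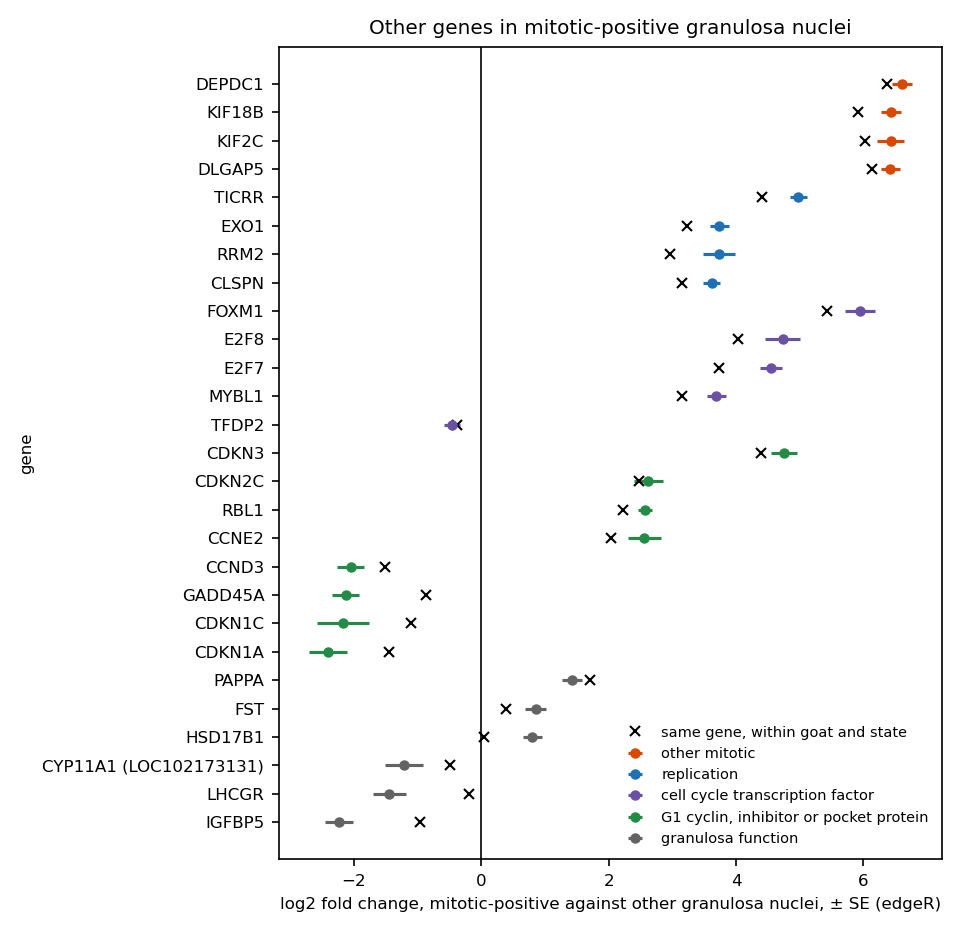
Log2 fold change ± SE (edgeR) between mitotic-positive and other granulosa nuclei for named genes of each of 5 lists (colours), at most 4 in each direction; crosses give the same gene within goat and granulosa state. The other mitotic and replication genes shown stay at 2.97 or more under both, while LHCGR moves from -1.44 to -0.18 and HSD17B1 from 0.81 to 0.04.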

How the data were processed

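Droplet 3' libraries of 4 ovaries gave nuclear RNA counts. The deposited counts are UMIs per gene and nucleus, which the authors made with Cell Ranger 5.0.0 according to the submitters' processing notes, and were not normalized. The matrix headers name another version and the genome stands as an assembly number only, so no sequence or coordinate is printed. 2 tables of the authors' own comparisons (fold changes and p-values) were not used.

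Nuclei within 2 SD of their library's mean UMI and gene counts and with at most 20% mitochondrial UMIs were kept, less Scrublet calls (scanpy 1.11.5), which left 29800057 to 54540864 UMIs per library. Values were log-normalized to 10000 UMIs. 2000 variable genes, without the 340 listed genes, gave 30 principal components, 20 neighbours and Leiden clusters (leidenalg 0.10.2, resolution 0.8, and 0.5 within granulosa nuclei). A list could name a cluster if at least 3 of its markers reached 10 CPM there with a log2 fold of 1. Folds were taken over the other clusters' median, and the list's mean log2 fold had to be at least 0.5. Of the lists that passed, the one with the highest mean log2 fold gave the name. Granulosa subclusters that no list named kept the first name of most of their nuclei, unless shallow. In this way 2633 nuclei entered the progenitor-like state with 2 of 5 progenitor markers up. This naming rule was chosen with the clusters already in view.

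Counts were summed per goat and class (at least 20 nuclei, 50 sums) and tested with edgeR 4.0.16 (quasi-likelihood, TMM, R 4.3.3), adjusted after Benjamini-Hochberg over all genes with a limit of 0.05, and with DESeq2 1.42.0 as an alternative. In fits with goat as a block the p-values measure only the spread left among these sums once goat is taken out. In the breed fits they measure only the spread between these libraries. The procedures were also run on simulated counts drawn from a common profile, without differences between goats. That run cannot show how the fits behave with the spread between these goats. Other normalization, filters, cluster resolutions, doublet removal, blocks and left-out libraries were tried.

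The members and lists were chosen with earlier results of these data known. Detail was given to the 8 genes with the largest log2 fold in the replicating state, to those higher outside granulosa nuclei, and to at most 4 genes per direction of each other list, and some genes that this rule would name are not reported here.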

Additional observations from a re-analysis of the deposited data

How the results depend on the processing

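All 39 mitotic genes were higher in the replicating state by class under each change of normalization, filter, test or block, and 36 and 37 at resolutions 0.4 and 1.2, 38 without the top 10% of doublet scores and 38 to 39 without each library. Against the other granulosa states the count was 38 at resolution 1.2 and 39 otherwise, and no remaining state formed at resolution 0.4, so that it gave no value. The causes of the following changes were not tested. Their counts come without the share of all genes called under the same setting, so they cannot be set against one. Higher in T or natural killer-like nuclei were 8 genes with DESeq2, 8 without goat as a block and 0 to 23 without each library. In the mural-like state they were 10 without goat as a block, 36 and 34 at resolutions 0.4 and 1.2, 3 without the top doublet scores and 2 to 11 without each library. In macrophages they were 2 at resolution 0.4 and 2 to 5 without each library, and in remaining granulosa nuclei 5 without the top doublet scores and 1 to 4 without each library. Lower in epithelial nuclei were 4 with library size alone, 2 with DESeq2, 5 without goat as a block, 0 and 4 at resolutions 0.4 and 1.2, 0 without the top doublet scores, 4 with the listed genes kept in clustering and 2 to 24 without each library. In the progenitor-like state these were, in that order of settings, 2, 6, 0, 0 and 16, 15, 19, and 0 to 3. Mural-like against remaining nuclei gave 0 with library size alone, 25 at resolution 1.2, 0 without the top doublet scores and 0 to 1 without each library. Progenitor-like against remaining nuclei gave 19, 14 and 2 lower genes at resolution 1.2, without the top doublet scores and with the listed genes kept, and 1 to 7 without each library.

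Between breeds the pairs called were 3 with DESeq2 (0.346% of all pairs), 22 without the low-count filter (0.794%) and 0 to 5 without each library (0.0668% to 0.626%). Replicate numbers did not pair the goats (correlations of -0.291 to 0.162), and with the replicate number as a block 0 pairs were called. A block with crossed pairing called 1 (0.19% of all pairs). Without the smaller replicating subcluster the breed difference in the replicating state was -3.26 points, and without each library it was 3.93 to 8.11 there and 2.56 to 5.09 in the 4 granulosa states together. The mean share of positive nuclei was 10.5% of granulosa nuclei with 2 genes as the limit and 13.9% without thinning. In the replicating state it was 16.3% with 5 genes, 29.1% without thinning, 26.5% at 2000 UMIs and 15.2% without that subcluster. In positive nuclei 778 other genes were lower with remaining and replicating states only and 648 to 1424 without each library. G1 genes lower were then 3, and granulosa genes higher 3, or 2 within goat and state and 5 to 9 without each library. Among positive nuclei without replication genes 0 members were higher with DESeq2 and 0 to 0 without each library, and 0 to 2 were lower.

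Without Du'an replicate 2 the log2 folds in T or natural killer-like nuclei turned to -0.048 (ANLN), -0.74 (ASPM), -0.094 (KIF11), -0.20 (KIF15), -0.068 (KNL1), -0.25 (MKI67), -0.73 (NCAPH), -0.26 (TPX2) and -0.014 (TTK). Their highest values without another library were 1.15, 1.84, 1.14, 1.23, 1.21, 1.52, 1.57, 1.08 and 1.19. In epithelial nuclei CKAP5 turned to 0.10 at resolution 0.4 and 0.044 without the top doublet scores, and SMC4 to 0.086 at resolution 0.4. CENPE in remaining granulosa nuclei turned to -0.045 with the listed genes kept. LHCGR and LOC102173131 turned to 1.03 and 0.83 with remaining and replicating states only. Sparse genes such as AURKB rest on few UMIs, and 4 goats limit every test.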
